A study of Mus musculus with 35 samples.

Results

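The Hox genes of mouse were described in brown and white fat by cluster and by paralogue number. Members were chosen by name: every symbol of the form Hoxa, Hoxb, Hoxc or Hoxd followed by a number from 1 to 13, with antisense transcripts left out. Of 39 such symbols, 35 had a row among the 18947 genes of the authors' deposited table of mRNA. Hoxc12, Hoxc13, Hoxd1 and Hoxd4 had none and were not analysed here. The rule uses names and not values, although it was set with earlier results of these data known.

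The mRNA came from interscapular brown adipose tissue (iBAT) and epididymal white adipose tissue (eWAT) of untreated male C57BL/6J mice of 15 weeks, with 4 libraries from each tissue. MicroRNA (miRNA) was sequenced in other libraries, from mice of 13 weeks, with 3 libraries for each of 6 depot labels (iBAT, eWAT, aWAT, cWAT, iWAT and mWAT in the labels). The protocol describes male C57BL/6J mice at room temperature and also inguinal pads of cold-housed mice, without tying the cold housing to a depot label, and no label spells out mWAT, iWAT, aWAT or cWAT. The label cWAT may therefore stand for inguinal fat of cold-housed mice and not for a depot of its own, and depots below means these labels. The 9 Argonaute HITS-CLIP samples of both tissues (2 pooled mice each) were not analysed here. No label says that libraries came from separate animals, so p-values measure only the spread between these samples.

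Hox genes encode homeodomain transcription factors that specify position along the head-to-tail axis of the embryo. They lie in 4 clusters, and the order of the genes in a cluster follows the order of the body levels at which they are active, with low paralogue numbers active from the hindbrain and neck and high numbers in the lumbar, sacral and tail regions. Adult stromal cells and preadipocytes of different depots keep Hox expression patterns that reflect where in the body they arose. In RefSeq (GRCm38.p6) the HoxA cluster lies on chromosome 6, HoxB covers chromosome 11 from 96194316 to 96368254, HoxC chromosome 15 from 102921131 to 103036856 and HoxD chromosome 2 from 74668225 to 74765142. The clusters also hold 6 miRNA genes. Mir196b lies between Hoxa9 and Hoxa10, Mir196a-1 between Hoxb9 and Hoxb13, and Mir196a-2 between Hoxc9 and Hoxc10, while Mir10a lies within the span of Hoxb3, Mir10b within those of Hoxd3 and Hoxd4, and Mir615 within that of Hoxc5.

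The mature miRNAs of these genes are shown because they give a measurement of the same clusters in single libraries. They are printed from RefSeq, 5′ to 3′, with the seed (bases 2 to 8, which pair with targets) in capitals.
miR-196a-5p: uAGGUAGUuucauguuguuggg
miR-196b-5p: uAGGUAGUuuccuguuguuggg
miR-10a-5p: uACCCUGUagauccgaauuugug
miR-10b-5p: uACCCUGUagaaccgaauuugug
miR-615-3p: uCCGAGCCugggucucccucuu
They fall into 3 seed groups. Counted from the 5′ end, miR-196b-5p differs from miR-196a-5p by A12C, and miR-10b-5p differs from miR-10a-5p by U12A, so within each pair the seed is shared. Mir196a-1 and Mir196a-2 give the same mature sequence, and reads of miR-196a-5p cannot be assigned to HoxB or HoxC.

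The comparison of iBAT with eWAT set an interscapular brown pad against an epididymal white pad. Fat type and body level differ together between these pads and cannot be told apart here. The authors' deposited table called 21 of the 35 Hox genes lower in iBAT and 4 higher at an adjusted p under 0.05, and left 10 uncalled. Over all 18947 genes it called 48.0%, with 27.1% lower and 20.9% higher. Asking also for an absolute log2 fold change of at least 1 left 18 lower and 3 higher, beside 30.6% of all genes called in either direction, per the authors' deposited table. Over the 35 Hox genes the median was -1.20 in log2 fold change, beside -0.10 over all genes, per the authors' deposited table. The members higher in iBAT were Hoxa2, Hoxa3, Hoxa4 and Hoxa5, neighbours in HoxA, per the authors' deposited table. No member of HoxB, HoxC or HoxD was called higher per the authors' deposited table. Tissue RNA cannot tell fewer cells of a type from less RNA per cell.

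The authors' deposited table sets fold changes against size factors, and the normalized counts implied by its base means and fold changes summed to more in iBAT. The log2 ratio of the sums was 0.97 with all genes and 0.19 without 13 mitochondrially encoded genes, which held 48.2% of the implied sum in iBAT and 10.9% in eWAT per the authors' deposited table. Scaling the authors' deposited table to equal sums of all genes, with p from the shifted fold change over its standard error (SE), moved the median of all genes to -1.07 and gave 2 Hox genes higher and 26 lower, beside 5.66% of all genes higher and 57.3% lower. Hoxa4 and Hoxa5 were the 2 still higher under that scaling of the authors' deposited table. Hoxa2, Hoxa6, Hoxb1, Hoxb4, Hoxb13 and Hoxc5 were among those that turned from positive to negative, and Hoxa3, at 0.08, was no longer called per the authors' deposited table so scaled. Hoxa9, Hoxb3, Hoxb4 and Hoxc5 were among those that gained a call, all lower in iBAT, per the authors' deposited table so scaled. Without the mitochondrial genes in the sums the median of all genes moved to -0.29, and 3 Hox genes were higher and 19 lower, beside 14.7% and 29.1% of all genes, per the authors' deposited table so scaled.

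By position, the 13 measured members of paralogue groups 1 to 5 divided into 4 higher, 4 lower and 5 not called, with a median log2 fold change of 0.15, per the authors' deposited table. Of the 8 members of groups 6 to 8, 7 were lower and 1 was not called (median -2.24) per the authors' deposited table. Of the 14 members of groups 9 to 13, 10 were lower and 4 were not called (median -5.58) per the authors' deposited table. Scaled to equal sums of all genes, the authors' deposited table gave 2 higher and 8 lower in groups 1 to 5 (median -0.82), 7 lower in groups 6 to 8 (median -3.21) and 11 lower in groups 9 to 13 (median -6.55). Such a shift leaves the order of the 3 medians as it is. As a description, Spearman's rho between paralogue number and log2 fold change was -0.61 over the 35 genes and -0.66 over the 25 genes with an SE of up to 1, per the authors' deposited table. These points share libraries, clusters and neighbouring regulatory sequence and are not independent.

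**Figure D1:**
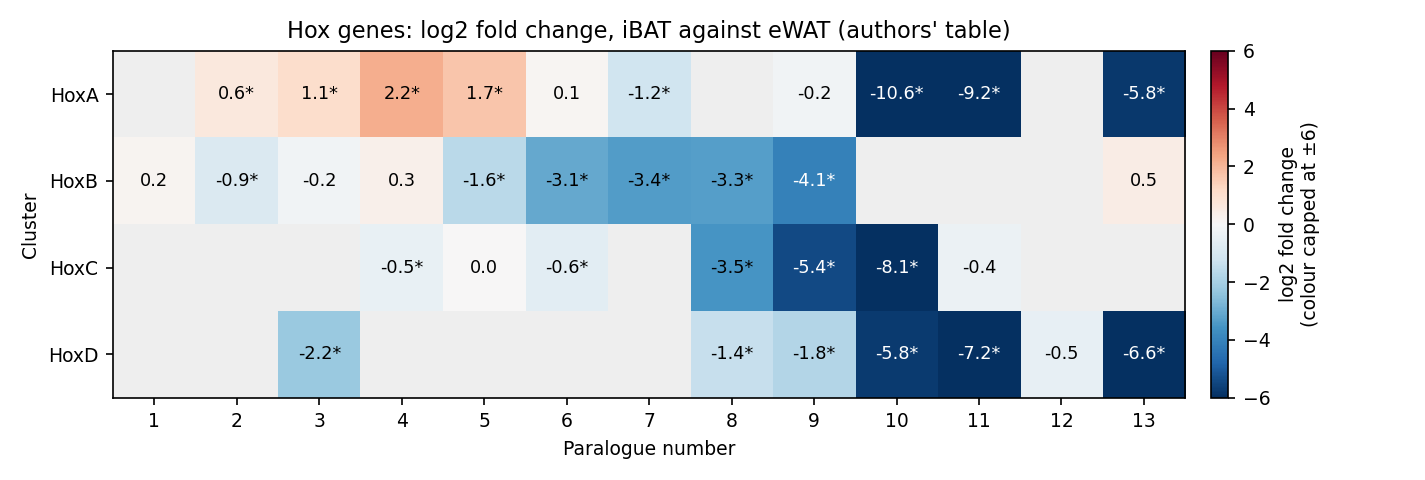
Log2 fold change of each Hox gene (iBAT against eWAT, colour and printed value) by cluster (rows) and paralogue number (columns) per the authors' deposited table; a star marks an adjusted p under 0.05, and grey cells have no gene, no row or no value shown. The 4 starred positive cells are Hoxa2 to Hoxa5, and the 21 starred negative cells lie mostly to the right; scaling to equal sums of all genes turns Hoxa2, Hoxa6, Hoxb1, Hoxb4, Hoxb13 and Hoxc5 negative.

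HoxA was the cluster with calls in both directions, 4 higher and 4 lower of 11, per the authors' deposited table. Hoxa4, a gene of the neck-level group, had an implied mean normalized count of 621 in iBAT and 136 in eWAT, which is 2.19 ± 0.19 (SE) in log2 fold change (adjusted p = 2.29e-29) per the authors' deposited table. Hoxa5, which patterns the neck-to-thorax transition and the lung, stood at 1190 in iBAT and 371 in eWAT (1.68 ± 0.17, adjusted p = 3.14e-23) per the authors' deposited table. Both genes were thus well above the limit of detection in either tissue and differed in level.

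Hoxa3, needed for the thymus and parathyroid, stood at 625 in iBAT and 300.4 in eWAT (1.06 ± 0.17, adjusted p = 4.68e-09) per the authors' deposited table. Hoxa2, which patterns the branchial arches, stood at 129 and 84.2 (0.62 ± 0.27, adjusted p = 0.0345) per the authors' deposited table. From Hoxa2 to Hoxa4 the fold changes increased with paralogue number. Neither Hoxa2 nor Hoxa3 was called higher once the authors' deposited table was scaled to equal sums of all genes. Without the mitochondrial genes in the sums, Hoxa3 was still called higher (0.87, adjusted p = 3.52e-06 from the shifted fold change over SE). Hoxa2 was not (0.43, adjusted p = 0.199 from the same test).

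The sign changed between Hoxa5 and Hoxa7. Hoxa6, the gene between them, had 0.11 ± 0.52 (adjusted p = 0.868), and Hoxa7 was lower in iBAT at 618 against 1421 in eWAT (-1.20 ± 0.19, adjusted p = 7.84e-10), per the authors' deposited table. Hoxa9 was not called at -0.20 ± 0.42 (adjusted p = 0.695) per the authors' deposited table, so the fold changes of HoxA did not fall at every step. The RefSeq span of Hoxa3 overlaps those of Hoxa4, Hoxa5 and Hoxa6 by 2022, 2834 and 3815 bases, and how reads shared by these transcripts were divided was not tested.

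Hoxa10, Hoxa11 and Hoxa13 were close to absent from iBAT. Hoxa10, which sets lumbar identity and acts in the uterus and male tract, had an implied mean of 0.0942 in iBAT and 143 in eWAT (-10.56 ± 3.11, adjusted p = 2.94e-12) per the authors' deposited table. Hoxa11, a gene of the forearm, kidney and reproductive tract, had 0.116 and 70.0 (-9.24 ± 3.07, adjusted p = 6.95e-08) per the authors' deposited table. Hoxa13, a gene of digits and hindgut, had 0.230 and 12.6 (-5.77 ± 3.06, adjusted p = 0.00232) per the authors' deposited table. An implied mean under 1 normalized count carries no usable fold, and the SEs of about 3 log2 units show it, so these 3 values tell detection in eWAT from little or none in iBAT, not a size. Taking p from fold change over SE, the call of Hoxa13 was lost (adjusted p = 0.120) per the authors' deposited table.

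HoxB had 6 members lower, none higher and 4 not called of 10, with a median of -1.25, per the authors' deposited table. Hoxb9, a thoracic gene, had an implied mean of 18.1 in iBAT and 303 in eWAT (-4.06 ± 0.44, adjusted p = 3.98e-20), the lowest fold change of the cluster, per the authors' deposited table. Its neighbours Hoxb6, Hoxb7 and Hoxb8 had log2 fold changes of -3.07 ± 0.39, -3.36 ± 0.41 and -3.30 ± 0.42, all called, per the authors' deposited table. The 3 values lie within 1 SE of each other, and their implied iBAT means, 66.7, 66.9 and 63.6, were nearly the same per the authors' deposited table.

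Hoxb5 stood at 65.8 in iBAT and 203 in eWAT (-1.62 ± 0.39, adjusted p = 4.36e-05) per the authors' deposited table. On the low-numbered side the direction was lost: Hoxb4 had 0.31 ± 0.20 (adjusted p = 0.197) and Hoxb3 -0.19 ± 0.22 (adjusted p = 0.473) per the authors' deposited table. Hoxb2, a hindbrain gene, was an exception and was lower in iBAT (-0.87 ± 0.19, adjusted p = 2.06e-05) per the authors' deposited table. Hoxb1 and Hoxb13, at the ends of the cluster, had base means of 4.37 and 1.07 and were not called (adjusted p = 0.835 and 0.301) per the authors' deposited table. The lowest base mean per the authors' deposited table was 0.975, so Hoxb13 sat at the edge of detection in both tissues. Spearman's rho in HoxB was -0.36 over 10 genes and -0.87 over the 9 left when Hoxb13, the member with an SE over 1, was taken out of the authors' deposited table. The same cut to an SE of up to 1 changed rho from -0.78 (11 genes) to -0.52 (8) in HoxA, from -0.39 (7) to -0.90 (5) in HoxC and from -0.29 (7) to 0.50 (3) in HoxD, per the authors' deposited table. The spans of Hoxb3 and Hoxb4 overlap by 3372 bases.

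HoxC had 5 members lower, none higher and 2 not called of 7, with a median of -0.63, per the authors' deposited table. The fold changes fell steeply within the cluster. Hoxc4 (-0.46 ± 0.18, adjusted p = 0.0237) and Hoxc6 (-0.63 ± 0.21, adjusted p = 0.00535) were slightly lower in iBAT and Hoxc5 was not called (0.04 ± 0.27, adjusted p = 0.923) per the authors' deposited table. Hoxc8, a thoracic gene known as a target of miR-196a, stood at 210 in iBAT and 2443 in eWAT (-3.54 ± 0.30, adjusted p = 6.3e-31) per the authors' deposited table. Hoxc9, which acts in thoracic motor neurons and vertebrae, had 7.53 and 317 (-5.40 ± 0.53, adjusted p = 8.92e-24) per the authors' deposited table. Hoxc10, a lumbar and hindlimb gene, had 0.120 and 33.4 (-8.12 ± 2.80, adjusted p = 2.33e-08) per the authors' deposited table. Hoxc11, the next gene, had a base mean of 1.01 and was not called (adjusted p = 0.391), so nearly no transcript of it was seen in either tissue per the authors' deposited table. With all fold changes centred on the median gene, Hoxc4 was no longer called (adjusted p = 0.0952) per the authors' deposited table.

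HoxD had 6 members lower, none higher and 1 not called of 7, with the lowest median of the clusters at -2.23, per the authors' deposited table; the other medians were 0.11 in HoxA, -0.63 in HoxC and -1.25 in HoxB. Its lowest-numbered measured member was among those lower in iBAT. Hoxd3, which acts in neck vertebrae, stood at 164 in iBAT and 770 in eWAT (-2.23 ± 0.27, adjusted p = 5.29e-16) per the authors' deposited table. The other measured members of group 3 were Hoxa3, higher in iBAT, and Hoxb3, not called, per the authors' deposited table; scaled to equal sums of all genes, Hoxa3 was not called and Hoxb3 and Hoxd3 were lower. The RefSeq spans of Hoxd3 and Hoxd4 overlap by 7183 bases, and Hoxd4 had no row of its own.

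Hoxd8 (-1.41 ± 0.37, adjusted p = 0.000156) stood at 368 in iBAT and 976 in eWAT per the authors' deposited table. Hoxd9 (-1.76 ± 0.32, adjusted p = 3.89e-08) stood at 84.5 and 286 per the authors' deposited table. Beyond them the implied iBAT mean lay below 1 normalized count for each member except Hoxd12 (3.62) per the authors' deposited table. Hoxd10, a lumbar gene, had 0.563 in iBAT and 30.5 in eWAT (-5.76 ± 1.56, adjusted p = 1.36e-05) per the authors' deposited table. Hoxd11, a gene of forearm and kidney, had 0.173 and 26.1 (-7.24 ± 3.09, adjusted p = 0.000190) per the authors' deposited table. Hoxd13, a digit and genital gene, had 0.233 and 22.8 (-6.61 ± 3.37, adjusted p = 0.00188) per the authors' deposited table, and its call was lost when p was taken from fold change over SE (adjusted p = 0.104). Hoxd12, between them, had a base mean of 4.33 and was not called (-0.48 ± 1.19, adjusted p = 0.111) per the authors' deposited table. From fold change over SE its adjusted p was 0.823, so its fold and deposited p do not match. The implied iBAT mean of Hoxd12 is therefore uncertain. The spans of Hoxd10 and Hoxd11 overlap by 2744 bases.

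**Figure D2:**
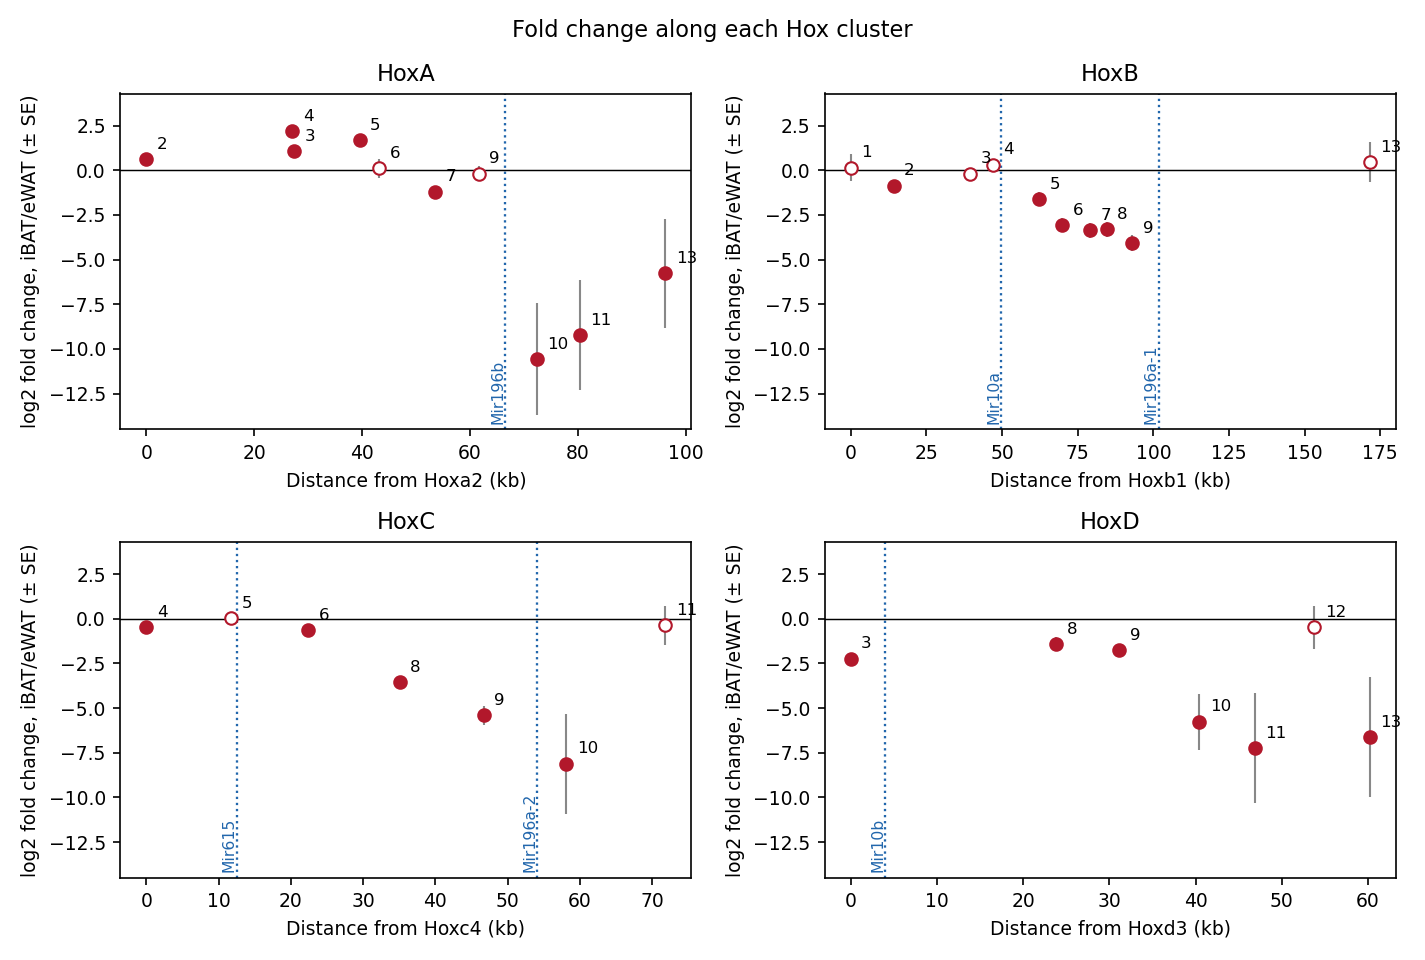
Log2 fold change (± SE, iBAT against eWAT, the authors' deposited table) against distance in kb from the first plotted gene of each cluster, with filled points for an adjusted p under 0.05, open points for the others, paralogue numbers beside the points and dotted lines at miRNA genes. In HoxA the points are above 0 near the left end (Hoxa2 and Hoxa6 turn negative when scaled to equal sums of all genes) and Hoxa10 and Hoxa11 lie below -9; in HoxD all points lie below 0.

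The members near absence in iBAT sat at the high-numbered ends. In the authors' deposited table, 10 members had an SE over 1, and the 7 of them that were called had implied iBAT means of at most 0.563 and implied eWAT means of 12.6 to 143. These 7 were Hoxa10, Hoxa11, Hoxa13, Hoxc10, Hoxd10, Hoxd11 and Hoxd13, all of groups 10 to 13, per the authors' deposited table. Group 9 was measured in each cluster and was the last with clear expression in iBAT, at implied means of 86.9 for Hoxa9, 84.5 for Hoxd9 and 18.1 for Hoxb9, with Hoxc9 at 7.53, per the authors' deposited table. Beyond group 9 the highest implied iBAT mean was that of Hoxd12, at 3.62, per the authors' deposited table. The deposited p of Hoxd12 does not follow from its fold and SE, so this mean is uncertain.

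Markers of other cell types moved with this comparison. Of the marker lists, mesothelium had 7 of 7 genes lower in iBAT, with implied sums of 353 in iBAT and 14942.5 in eWAT, per the authors' deposited table. Epididymis markers had 7 of 8 lower, with sums of 4.10 and 84709, per the authors' deposited table. Fibroblast and progenitor markers had 7 of 7 lower, with a median of -0.96 and sums of 26953 and 87824, per the authors' deposited table. Skeletal muscle markers had 8 of 8 higher, with sums of 132535 and 1045, per the authors' deposited table. Markers of Schwann cells and nerve had 5 of 6 higher, with sums of 7256 and 1396, per the authors' deposited table; scaled to equal sums of all genes 3 were higher and 1 lower. Brown adipocyte markers had 8 of 8 higher and white adipocyte markers 6 of 6 lower per the authors' deposited table. The sign itself was read from Ucp1, Cidea, Lep and Wt1, members of the brown, white and mesothelium lists. These directions are therefore no check of the labels. Over all genes 20.9% were higher and 27.1% lower per the authors' deposited table. Levels of these markers in single mRNA libraries were not at hand, and the part of these cell types in the Hox values was not tested.

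Regulatory sequence was at hand for some members. RefSeq windows of the 250 bases before a transcription start covered 20 members in 22 windows, with a median of 12.5 CG dinucleotides (range 2 to 35), beside 6 over 32851 windows of all genes. The windows of Hoxa5 and Hoxa7 are shown because the fold change turned from positive to negative between these genes. Both are on the minus strand of GRCm38.p6, chr6:52204588-52204837 for Hoxa5 and chr6:52218574-52218823 for Hoxa7, with CG in capitals.
Hoxa5: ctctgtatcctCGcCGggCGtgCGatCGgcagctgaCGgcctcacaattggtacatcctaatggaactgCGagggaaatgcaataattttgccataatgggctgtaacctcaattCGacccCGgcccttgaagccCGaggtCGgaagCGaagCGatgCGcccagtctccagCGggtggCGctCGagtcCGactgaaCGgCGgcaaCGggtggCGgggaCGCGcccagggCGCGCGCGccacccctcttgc
Hoxa7: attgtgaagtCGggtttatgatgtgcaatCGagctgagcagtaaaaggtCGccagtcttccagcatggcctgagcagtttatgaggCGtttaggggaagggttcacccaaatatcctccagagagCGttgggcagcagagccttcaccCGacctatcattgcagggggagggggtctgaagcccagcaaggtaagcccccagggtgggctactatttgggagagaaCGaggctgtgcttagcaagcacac
The Hoxa5 window holds 28 CG dinucleotides and the Hoxa7 window 7. This pair does not stand for the rest. Of the other windows of members called higher, that of Hoxa3 holds 18 and that of Hoxa2 6. Windows of members called lower range from 2 (1 of those of Hoxd11) to 35 (Hoxa13). The medians were 18 for members called higher, 12.5 for those lower and 10 for those not called, and no association was tested. On both strands, TTTATG (a core preferred by homeodomains of the high-numbered groups) was found in 4 of the 22 windows, those of Hoxa7, Hoxb8, Hoxd3 and Hoxd11, beside 10.8% of all windows. TGATTNAT (a motif of Hox proteins paired with Pbx) was found in 2 of the 22, those of Hoxa2 and Hoxd11, beside 2.82% of all windows. The 2 motifs can overlap where N is T, and a match is a description of letters only.

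In the miRNA libraries, 5 of the 7 tested arms of Hox-cluster miRNAs were called between iBAT and eWAT, all 5 lower in iBAT. Calls were made by limma with Benjamini-Hochberg adjustment over 436 miRNAs. Of all tested miRNAs, 55% were called in either direction, and the share called lower was not counted. miR-196a-5p, whose genes lie in HoxB and HoxC, was at 0 in all 3 iBAT libraries and at 23.3, 32.9 and 21.3 normalized counts in eWAT. The groups did not overlap, and the eWAT mean was 5.12-fold the mean of the iBAT floors, each set at 3 reads. The limma difference was -4.72 ± 0.20 (SE) on the log2(normalized count + 1) scale, with an adjusted p of 1.02e-10. With every iBAT value at 0, its size depends on the setting. It was -2.88 with a pseudocount of 4, -5.69 with 0.5, -6.53 in DESeq2 and -7.89 in edgeR. A listed 0 may stand for a single read, because only 6 values of 1 read occurred in the table beside 258 of 2 reads.

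miR-196b-5p, from the gap between Hoxa9 and Hoxa10, had 7.22, 1.76 and 3.51 normalized counts in iBAT (3, 2 and 2 reads) and 63.9, 113 and 72.3 in eWAT. Every eWAT library lay above every iBAT library, and the means differed 20.0-fold (limma -4.13 ± 0.41, adjusted p = 7.22e-07). On either side of its gene Hoxa9 was not called and Hoxa10 was nearly absent from iBAT per the authors' deposited table. For the miR-196a genes the neighbours were Hoxb9 and Hoxc9 on the low-numbered side, both lower in iBAT, and Hoxb13 and Hoxc10 on the other, per the authors' deposited table.

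The miR-10 genes sit among low-numbered Hox genes, and their miRNAs were abundant in all depots. miR-10a-5p, from HoxB, had 137315, 129929 and 119471 in iBAT and 141966, 113926 and 99508 in eWAT. The libraries of the 2 tissues overlapped, and the limma difference was 0.14 ± 0.17 (adjusted p = 0.526), with 0.21 ± 0.19 (adjusted p = 0.362) for its other arm, miR-10a-3p. miR-10b-5p, from HoxD, had 115873, 111213 and 95928.5 in iBAT and 231151, 185679 and 153311 in eWAT. All eWAT values lay above all iBAT values, a 1.77-fold difference of means (limma -0.80 ± 0.20, adjusted p = 0.00320), and its other arm, miR-10b-3p, differed by -1.48 ± 0.22 (adjusted p = 4.05e-05). Of the Hox genes whose spans hold these miRNA genes, Hoxb3 was not called and Hoxd3 was lower in iBAT per the authors' deposited table. Hoxd4, whose span also holds Mir10b, had no row. Scaled to equal sums of all genes, Hoxb3 and Hoxd3 were both lower, Hoxb3 at -1.17 (adjusted p = 2.04e-07), per the authors' deposited table.

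miR-615-3p, within Hoxc5, had 1085, 763 and 814 in iBAT and 1524, 1159 and 1273 in eWAT, without overlap (limma -0.58 ± 0.22, adjusted p = 0.0390). Its call was lost without iBAT replicate 2 (adjusted p = 0.128), iBAT replicate 3 (0.106), eWAT replicate 1 (0.135) or eWAT replicate 3 (0.0720) in limma. Its other arm, miR-615-5p, was removed by the filter on low values and had at most 9.69 normalized counts in any library. Hoxc5 itself was not called per the authors' deposited table.

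Across the 6 depots the 2 miR-196 species spread widest of the 5 miRNAs. Both were called lower in iBAT than in each white depot by limma, in comparisons that called 55% (eWAT), 55.5% (mWAT), 54.4% (iWAT), 53.2% (aWAT) and 47.5% (cWAT) of all miRNAs. Mean miR-196a-5p rose in the order iBAT (0), aWAT (6.62 ± 2.28, SD, n = 3), eWAT (25.8 ± 6.20), mWAT (614.5 ± 46.8), cWAT (1152 ± 110) and iWAT (1160 ± 72.3). Each step up to iWAT was called by limma except that between cWAT and iWAT, which did not differ beyond their spread (adjusted p = 0.992). The step from aWAT to eWAT was 3.90-fold (limma adjusted p = 1.14e-05, with 25.9% of all miRNAs called in that pair) and that from eWAT to mWAT 23.8-fold (limma adjusted p = 2.35e-10, with 29.1% called). The step from mWAT to iWAT was 1.89-fold (limma adjusted p = 0.00292, with 33% called). aWAT rested on 4, 7 and 5 reads, close to the floor of 3, and its mean was 1.31-fold the mean of the iBAT floors. The floor of iBAT library 1 alone, 7.22, lay above the aWAT mean and above aWAT values of 4.56 and 6.24. No lower bound on the fold therefore holds against that library.

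miR-196b-5p had another order. iBAT was lowest (4.16 ± 2.79, SD, n = 3), then eWAT (83.2 ± 26.4) and aWAT (101 ± 65.4), which did not differ beyond their spread (limma adjusted p = 0.884). cWAT (1062 ± 142), iWAT (1345 ± 164) and mWAT (2156 ± 153) followed, and no pair among these 3 was called (0%, 33% and 36.2% of all miRNAs were; limma adjusted p = 0.803, 0.215 and 0.0591 for cWAT with iWAT, iWAT with mWAT and cWAT with mWAT). mWAT was 21.4-fold above aWAT (limma adjusted p = 1.77e-06, with 23.6% of all miRNAs called). The value in aWAT ranged from 46.2 to 173 over its 3 libraries. In mWAT miR-196b-5p stood above miR-196a-5p in each library (2211, 1983 and 2274 against 591, 668 and 584), whereas in cWAT the 2 were close (1217, 1031 and 939 against 1240, 1186 and 1029). Mature miRNAs of different sequence can be captured at different rates, so only the change of this ratio between depots is described.

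The passenger arms of the miR-196a genes can be told apart. miR-196a-1-3p, from HoxB, was seen in eWAT (1.29, 2.56 and 4.15 normalized counts) and in 2 of 3 mWAT libraries (19.6 and 3.24), and was at 0 in all iBAT, iWAT, aWAT and cWAT libraries. miR-196a-2-3p, from HoxC, was seen in all iWAT (10.6, 6.46 and 10.7) and cWAT (11.1, 3.35 and 8.98) libraries and in 2 of 3 mWAT libraries (3.93 and 7.54), and was at 0 in all iBAT, eWAT and aWAT libraries. These rest on 2 to 26 reads where detected and were not tested, since the filter on low values removed both arms. Muscle miRNAs (4 of them) summed to 12530 to 22945 in iBAT, 1013 to 1059 in eWAT, 3755 to 5306 in mWAT, 457 to 19248 in iWAT, 72351 to 561747 in aWAT and 1259 to 25739 in cWAT. Epithelial miRNAs (5) summed to 15.8 to 38.7 in iBAT, 2593 to 7856 in eWAT, 337 to 6562 in mWAT, 91.6 to 4095 in iWAT, 776 to 13365 in aWAT and 99.2 to 231 in cWAT. Both sums varied widely among the libraries of iWAT and of aWAT. Their part in the miR-196 and miR-10b values was not tested.

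**Figure D3:**
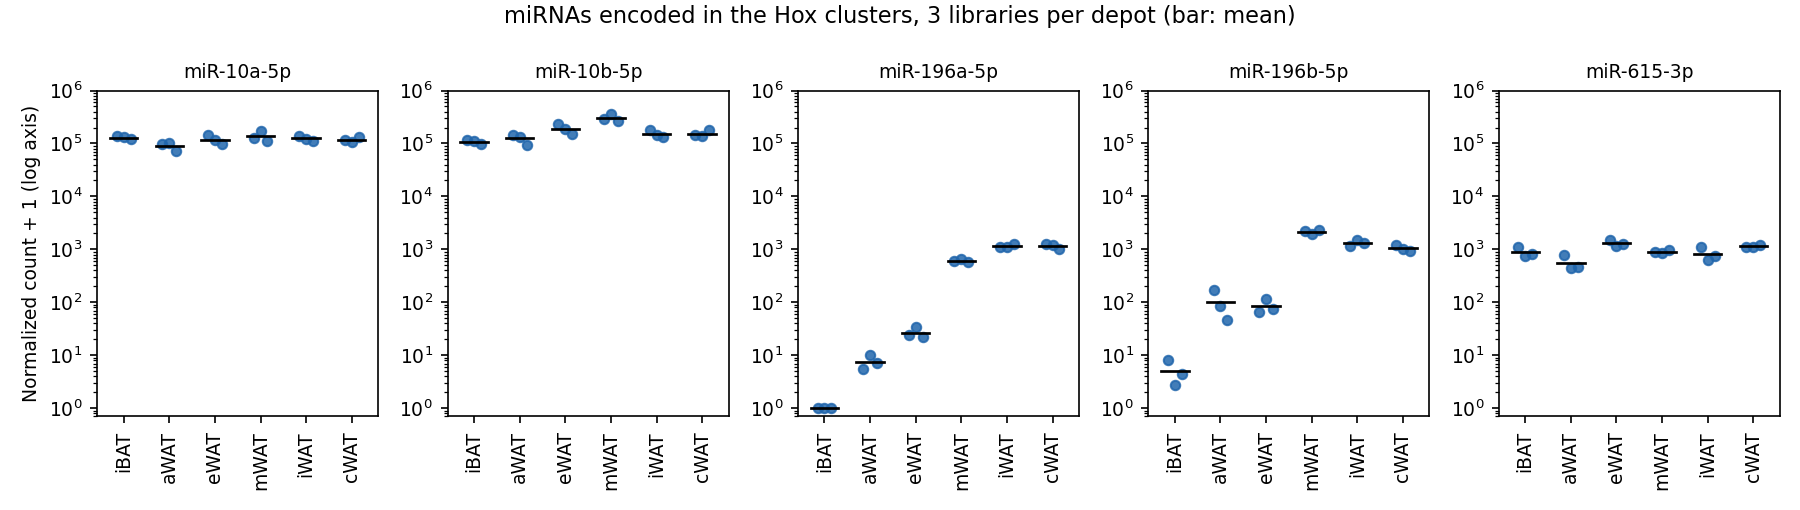
Normalized count + 1 (log axis) of 5 Hox-cluster miRNAs in each of 3 libraries per depot, with a bar at the mean. miR-196a-5p rises from 0 in iBAT (plotted at 1) to means of 1152 and 1160 in cWAT and iWAT, while miR-10a-5p stays between 72618 and 171387 in all 18 libraries.

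Genes that act with Hox proteins or on their clusters were read from set lists. TALE cofactors, the Pbx, Meis and Pknox homeodomain proteins that bind DNA beside Hox proteins, had 3 of 9 called lower in iBAT and 6 uncalled (median -0.33) per the authors' deposited table. They included Meis3 (-2.67 ± 0.29, adjusted p = 9.76e-20) and Meis1 (-1.26 ± 0.18, adjusted p = 8.34e-12) per the authors' deposited table. Over all genes 27.1% were lower per the authors' deposited table. Scaled to equal sums of all genes, 9 of 9 TALE genes were lower, beside 57.3% of all genes, and without the mitochondrial genes in the sums 4 were lower and 5 not called, beside 29.1% of all genes, per the authors' deposited table.

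Polycomb genes, whose proteins keep Hox genes silent, had 4 higher, 2 lower and 14 not called of 20 (median 0.15) per the authors' deposited table. Over all genes it called 20.9% higher and 27.1% lower. Ezh2, the H3K27 methyltransferase (0.75 ± 0.19, adjusted p = 0.000166), and Suz12 (0.65 ± 0.25, adjusted p = 0.0172) were among those higher per the authors' deposited table. Rbbp7 (-0.54 ± 0.15, adjusted p = 0.000819) and Rbbp4 (-0.40 ± 0.15, adjusted p = 0.0180) were lower per the authors' deposited table. Scaled to equal sums of all genes the Polycomb list turned to 1 higher and 15 lower per the authors' deposited table. Over all genes that scaling gave 5.66% higher and 57.3% lower. Trithorax genes and H3K27 demethylases, which act against Polycomb, had 5 higher, 1 lower and 5 not called of 11 (median 0.61) per the authors' deposited table, and 0 higher and 5 lower under that scaling. Without the mitochondrial genes in the sums, the authors' deposited table gave 2 higher and 4 lower for Polycomb (median -0.05) and 4 higher and 2 lower for trithorax (median 0.42). Over all genes it then gave 14.7% higher and 29.1% lower.

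Retinoic acid, an embryonic activator of low-numbered Hox genes, had 3 genes of its pathway higher, 8 lower and 4 not called of 15 (median -0.99) per the authors' deposited table. Beside them stand 20.9% of all genes higher and 27.1% lower. Aldh1a2, the main embryonic retinoic acid synthase, was lower in iBAT (-5.08 ± 0.25, adjusted p = 1.16e-93) and so was the binding protein gene Crabp1 (-5.97 ± 0.85, adjusted p = 1.05e-11) per the authors' deposited table. The receptor gene Rarb was called higher (adjusted p = 2.94e-25), with implied means of 359 in iBAT and 0.0449 in eWAT, so its fold has no usable size, per the authors' deposited table. Scaled to equal sums of all genes, 2 were higher and 10 lower per the authors' deposited table. Beside them stand 5.66% of all genes higher and 57.3% lower. No gene of the caudal and even-skipped list or of the list of noncoding RNAs of the clusters had a row, and they were not analysed here.

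**Figure D4:**
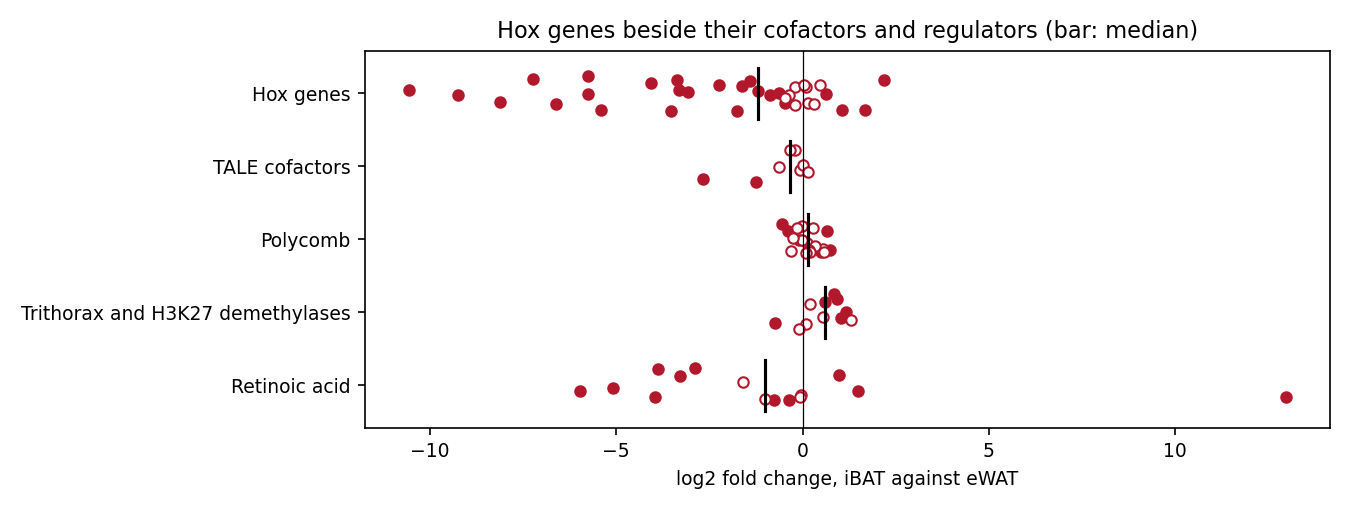
Log2 fold changes (iBAT against eWAT, the authors' deposited table) of the Hox genes and of 4 lists of cofactors and regulators; filled points have an adjusted p under 0.05, and a bar marks each list's median over all measured members, of which 3 are not drawn. The medians are -1.20 for Hox genes, -0.33 for TALE cofactors, 0.15 for Polycomb, 0.61 for trithorax and -0.99 for retinoic acid genes; scaling to equal sums of all genes lowers every point by 0.97 and turns the Polycomb and trithorax medians negative.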

How the data were processed

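Groups came from the sample labels. Per the submitters' processing notes, the tools were DESeq, DESeq2, kallisto 0.45.0 and Novoalign and the builds GRCm38 and mm10, with no roles given. The mRNA file holds the authors' comparison of 4 iBAT with 4 eWAT libraries and no value per library. Per the file headers its base mean is a signal, a normalized count averaged over libraries by the authors, with a log2 fold change, its SE, a p-value and an adjusted p-value as the authors deposited them. Depth per mRNA library is unknown. A positive sign was taken as higher in iBAT, from the signs of Ucp1 and Cidea (positive) and of Lep and Wt1 (negative), since the header states no direction. The deposited adjusted p-values are Benjamini-Hochberg values (largest gap 2.40e-07). For only 10.7% of genes does the p-value equal, within 0.01 log10 units, that of the fold change divided by its SE. The authors' test is not given in the sources. Calls from fold change over SE, used also under centring and the scalings, come from another test and cannot check theirs.

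Symbols were matched by Ensembl ID (18758 of 18947 genes). Implied group means were solved from base mean and fold, taking the fold as a ratio of means over 4 and 4 libraries. The same relation was checked on the miRNA values only. There the authors' deposited fold lay within 0.1 log2 of the ratio of means for 85.8% of 452 miRNAs, with a median gap of 0.00945. For the mRNA it could not be checked, because no value per library was at hand. The implied means of low-count genes are therefore unverified. Means near 0 are rough.

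The miRNA file holds normalized counts, a signal deposited by the authors after division by size factors, for 485 miRNAs in 18 libraries. Whole reads were recovered (100% of values whole within 0.02), with totals of 1293407 to 6816555. The design had named edgeR for raw counts, but values were normalized, so limma 3.58.1 (R 4.3.3; trend, eBayes) was fitted on log2(normalized count + 1) to all 6 depots with 12 residual degrees of freedom, and edgeR 4.0.16 and DESeq2 1.42.0 on recovered reads were alternatives. The low-count filter kept 436 miRNAs, and p was adjusted over them within each of 15 depot pairs. In simulated iBAT and eWAT counts of these 436 miRNAs, 84% of changes of log2 1 and 99% of those of log2 2 were called, and 1.69% of unchanged ones. The simulation gave every miRNA the same assumed spread beyond counting error and equal means in all white depots. These rates hold for that setting and not for miRNAs that vary more. Floors of 3 reads cover counting error only.

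Members, lists and the rule for named genes were chosen with earlier results of these data known. The rule accounts for the Hox members and gives SE and adjusted p for the called members of largest absolute fold change and those nearest a change of sign in each cluster, every detected arm of the cluster miRNAs, and up to 3 called genes of largest absolute fold change per list. Some members and list genes enter counts and medians but are not reported singly here. The marker miRNA lists and the scaling to equal sums were added after seeing the data. Sequences and spans are RefSeq's (GRCm38.p6).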

Additional observations from a re-analysis of the deposited data

How the results depend on the processing

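The counts of Hox genes called higher (4) and lower (21) per the authors' deposited table moved to 3 to 4 and 18 to 20 under p from fold change over SE, centring on the median gene, a base mean of at least 10 and an absolute log2 fold change of at least 1. Scaling to equal sums of all genes, added after seeing the data, gave 2 higher and 26 lower. It reversed Hoxa2 (-0.36), Hoxa6 (-0.87), Hoxb1 (-0.82), Hoxb4 (-0.67), Hoxb13 (-0.52) and Hoxc5 (-0.94), of which Hoxa2 had been called. Leaving mitochondrial genes out of the sums gave 3 higher and 19 lower and reversed Hoxa6 (-0.0864), Hoxb1 (-0.0419) and Hoxc5 (-0.16), none called. Calls lost under centring were Hoxa13, Hoxd13 and Hoxc4, and a fold of at least 1 lost Hoxa2, Hoxb2, Hoxc4 and Hoxc6. Over 290 alternatives for single genes and miRNAs, 262 kept direction and call. For the mRNA, p from fold change over SE, the base mean filter and the fold cut leave the fold as it is. Direction could not change under these settings, and the fold cut could add no call. With direction kept, 17 lost the call and 2 gained one. The other 9 reversed, and among them Hoxb4 and Hoxc5 gained a call under equal sums of all genes. For the 5 called miRNA arms, leaving out 1 library gave 4 to 5 calls, and other pseudocounts, no filter, iBAT and eWAT libraries alone, edgeR and DESeq2 gave 5. With a replicate block 5 arms were called too. Same-numbered iBAT and eWAT libraries correlated at 0.0277, -0.0908 and 0.0177, and 0 of 3 matched best by number, so the numbers were not taken as a pairing there. Among all 15 depot pairs only eWAT and iWAT had each same-numbered correlation over 0.1 (0.136, 0.287 and 0.269), and no test between those depots is reported. Over all miRNAs limma called 240, 247 with the block, edgeR 228 and DESeq2 235. No mRNA library could be left out or paired, because no value per library was at hand.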
